A study of Mus musculus with 6 samples.

Results

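Heterotrimeric G proteins and the enzymes downstream of them carry signals from surface receptors into the cell. An alpha subunit exchanges GDP for GTP when a receptor is activated and separates from a beta and gamma pair. Gs class alpha subunits stimulate adenylyl cyclases, which make cAMP, the activator of protein kinase A (PKA), while Gi class subunits inhibit them and phosphodiesterases degrade cAMP and cGMP. Gq class subunits stimulate phospholipase C (PLC) beta, whose products release calcium and activate protein kinase C (PKC), and calcium with calmodulin activates the kinase CaMKII. In neural cells these routes converge on the transcription factor CREB.

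The genes of this system were taken by their symbols. The symbols covered the alpha, beta and gamma subunits of G proteins, adenylyl cyclases, phosphodiesterases, PKA subunits, PLC beta, gamma, delta, epsilon and eta enzymes, PKC isoforms and CaMKII subunits, and 94 of the 23235 entries of the table matched. RNA was sequenced from mouse E14Tg2a embryonic stem cells (ESCs) at passages 37 to 40. ESCs maintained with leukemia inhibitory factor (LIF) gave 3 samples, and cells of the same line that received 1 μM retinoic acid (RA) without LIF for 48 h gave the other 3, all in a medium with fetal bovine serum. E14Tg2a is a single line, so the samples do not stand for different genetic backgrounds, and both LIF withdrawal and RA addition separate the groups and cannot be told apart. The table holds the authors' FPKM (fragment counts divided by transcript length and by the library's mapped fragments), 1 value per gene and condition over the 3 samples. Values of single samples were not analysed here, so no SD, interval or test accompanies any value here, and whether a difference exceeds the spread between samples was not tested.

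The marker genes followed the labels for the ESC state and for RA. All 6 pluripotency markers examined were at least 2-fold lower with RA, their summed level being 1547 FPKM with LIF and 82.8 FPKM with RA, and all 5 RA response markers were at least 2-fold higher. Of 5 neural progenitor markers 3 were at least 2-fold higher with RA (Pax6, Sox1 and Sox11), Nes was within 2-fold and Sox2, which ESCs also express, was 3.48-fold lower. Pax6 was at 3.64 FPKM with LIF and 65.2 FPKM with RA, and the 5 genes summed to 284 and 196 FPKM. The study names the RA-treated cells neuronal cells and cites earlier work for neuronal shape and markers by 48 h. Cell shape and protein were not examined here. Of 6 neuron markers 4 had a mean under 1 FPKM (Dcx, Rbfox3, Snap25 and Syt1). Tubb3 was at 33.4 FPKM with LIF and 7.54 FPKM with RA, and Map2 at 3.18 and 2.35 FPKM, within 2-fold. The cells are called RA-treated cells below. Of 6 endoderm markers 4 were at least 2-fold higher with RA, with a summed level of 7.91 FPKM with LIF and 20.0 FPKM with RA, and their part in the results below was not tested. In such bulk samples fewer cells of a type and less RNA per cell cannot be told apart.

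Some members of a family differ in sequence where they meet receptors and membranes. The end of an alpha subunit contacts the receptor, and the coding bases for this end differ among genes of the Gq class. The last 9 codons (27 bases, the stop codon included) of the coding sequences in the GENCODE M21 transcripts are shown 5′ to 3′ because the ratios of these genes differed widely within 1 class, and capitals mark bases that differ from Gnaq.
Gnaq: aacctgaaggagtacaatctggtctaa
Gna11: aacctgaaggagtacaaCctggtGtGa
Gna14: aacctACGggagtTcaaCTtggtGtaa
Gna15: TacctgGaCgagATcaaCctgCtGtGa
Gna11 differed from Gnaq at 3 of these bases, Gna14 at 7 and Gna15 at 9. The 3 bases of Gna11 are silent or lie in the stop codon, so Gnaq and Gna11 code for the same end. These counts include such bases and do not measure a difference in protein. Gamma subunits end in a prenylation box that starts with a cysteine codon (in capitals, 5 codons shown with the stop), and the codon before the stop goes with the kind of lipid that is added.
Gng5: TGCtcctttttgtag
Gng10: TGTgctctactttga
Gng2: TGCgccatcctttaa
Gng3: TGTgcgctcctctga
Gng11: TGTgtcatttcataa
Gng11 ends in tca, a serine codon that marks a farnesylated subunit, and the other 4 end in a leucine codon, which marks a geranylgeranylated one.

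A ratio of the RA value to the LIF value was formed without a pseudocount for genes whose mean over both conditions was at least 1 FPKM, and at least 2-fold was counted as higher or lower. A gene listed at 0 in 1 condition got no ratio. Of the 94 members 70 had such a mean, and all 70 got a ratio. With RA 16 of them (22.9%) were higher and 11 (15.7%) lower, against 10.9% and 9.74% of the 12716 genes of the table with a ratio. The table held 12784 genes with such a mean. The median log2 ratio was 0.24 over the 70 members and -0.04 over all genes, and the median absolute log2 ratio was 0.67 and 0.42. A gene under 0.667 FPKM in 1 condition could have such a mean only by a change of at least 2-fold, which was so for 3 higher members (Adcy2, Pde10a and Prkce) and 4 lower members (Gna14, Gna15, Gng8 and Pde8a). The same holds for regulator and marker genes under 0.667 FPKM in 1 condition. With a mean of at least 5 FPKM, 7 of 39 members were higher and 4 lower, against 6.64% and 7.72% of 9238 genes. At least 4-fold higher were 5 of the 70 members and at least 4-fold lower 4, against 3.93% and 3.11% of all genes. Set beside those shares of all genes, these counts describe the members and carry no test.

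The scaling of the conditions bears on every direction given here. The FPKM values of the table sum to 770592 with LIF and 628679 with RA. When both conditions were rescaled to the same sum, every log2 ratio grew by 0.29, so that 22 members were higher and 7 lower, and higher members made up 75.9% of those past the limit in place of 59.3%. Over all genes the same rescaling moved this share from 52.7% to 71.8%, with 17.3% of genes higher and 6.80% lower. Under that scaling 8 members with a lower value in the RA-treated cells became higher, namely Adcy3, Gnai1, Gnai2, Plcb4, Plcg1, Prkar2a, Prkci and Prkcz. Past the 2-fold limit upwards only after rescaling were Adcy7, Camk2a, Gng12, Pde5a, Pde6d and Prkar2b. Under centring on the median log2 ratio of all genes no member changed sign.

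**Figure D1:**
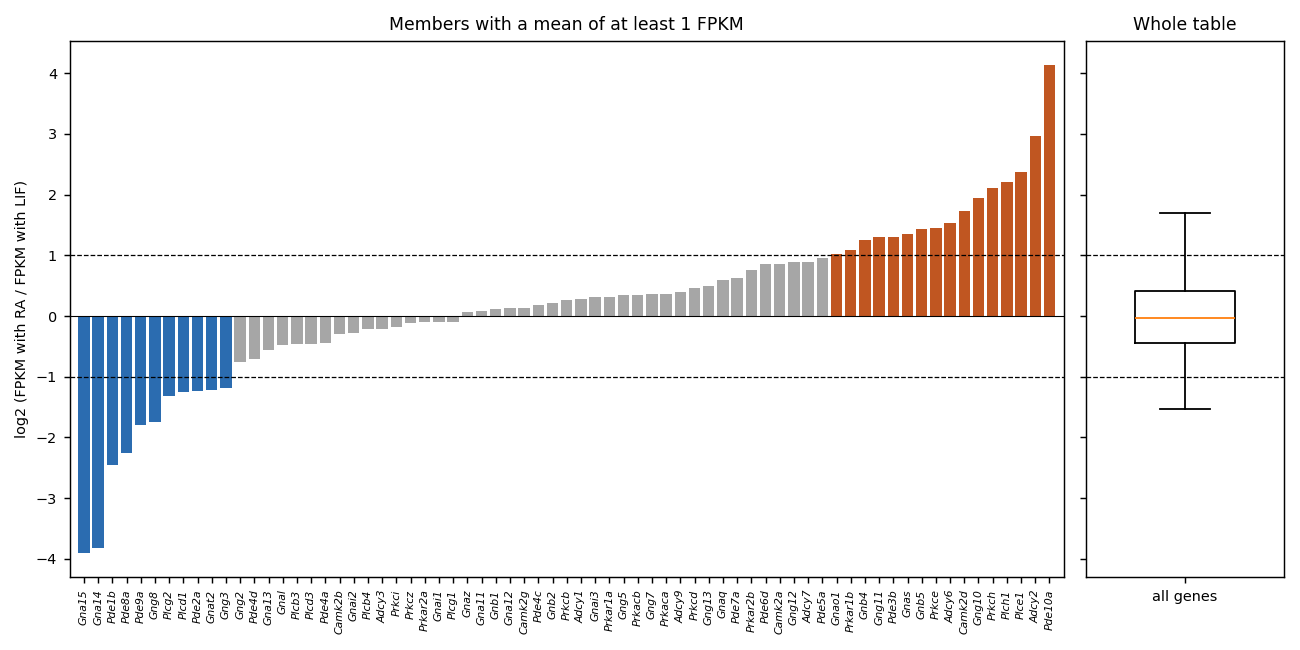
The log2 ratio of FPKM with RA to FPKM with LIF is drawn as 1 bar for each of 69 of the 70 members with a mean of at least 1 FPKM, in rising order, with dashed lines at 2-fold. The box at the right gives the median, quartiles and 5th and 95th percentiles of all genes with a ratio. Their 95th percentile is 1.70, while the members run from -3.89 for Gna15 to 4.13 for Pde10a.

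Among the alpha subunits the Gs gene was higher in RA-treated cells and 2 Gq class genes were much lower. Gnas, which encodes the stimulatory Gs alpha subunit (chromosome 2, 174284320 to 174346744, GRCm38), was at 197 FPKM in ESCs and 504 FPKM in RA-treated cells, 2.56-fold higher. It was the most abundant member with RA, above 99.3% of all genes of the table, and its part of the summed alpha subunit FPKM was 35.0% with LIF and 59.9% with RA. The Gnas locus is imprinted and makes transcripts from several promoters, and the table gives 1 value for all Gnas transcripts. The antisense gene Nespas on the opposite strand has its own entry, at 1.15 FPKM with LIF and 1.27 FPKM with RA. Gnal, the Gs class subunit of olfactory and striatal neurons, was at 1.21 FPKM with LIF and 0.866 FPKM with RA.

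Summed over the Gs class, FPKM was 198 with LIF and 505 with RA. The other classes lay close to even. Gi class genes summed to 272 FPKM with LIF and 254 FPKM with RA, and the G12 class to 49.6 and 44.5 FPKM. The Gq class summed to 42.9 and 38.3 FPKM, and the sums of these 3 classes were higher with RA once the conditions were rescaled. Without Gnas the alpha subunits had a summed log2 ratio of -0.12 as deposited and 0.18 after rescaling.

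Within the Gi class the abundant genes differed little between the conditions. Gnai2 was at 193 FPKM with LIF and 159 FPKM with RA, 1.21-fold lower, and higher with RA after rescaling. Gnai3 was at 61.5 and 76.4 FPKM, and Gnai1 at 8.75 and 8.20 FPKM. Gnao1, the main alpha subunit of the brain, was at 2.48 FPKM with LIF and 5.05 FPKM with RA, 2.03-fold higher, just past the limit and within it with a pseudocount of 0.1 FPKM. Gnaz, whose product is insensitive to pertussis toxin, was at 4.58 and 4.78 FPKM. The transducin gene of cones, Gnat2, was 2.33-fold lower, at 1.91 FPKM with LIF and 0.818 FPKM with RA, and within the limit after rescaling. Gnat1 of rods was at 0.243 and 0.0248 FPKM, and the gustducin gene Gnat3 was listed at 0 with LIF and at 0.0429 FPKM with RA.

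The Gq class held genes of both kinds. Gna15 (chromosome 10, 81502306 to 81524225), whose product couples to many kinds of receptor in blood cells, was at 7.87 FPKM with LIF and 0.529 FPKM with RA, 14.9-fold lower. Gna14 (chromosome 19, 16435762 to 16610820) was at 2.50 FPKM with LIF and 0.177 FPKM with RA, 14.1-fold lower. The widely expressed Gna11 (chromosome 10, 81528724 to 81545190) was at 25.5 FPKM with LIF and 26.9 FPKM with RA. Gnaq (chromosome 19, 16132831 to 16387463) was at 7.05 FPKM with LIF and 10.6 FPKM with RA, 1.51-fold higher. These are 2 tandem pairs on the same strand. Gna15 and Gna11 are separated by 4498 bases and Gnaq and Gna14 by 48298 bases. In each pair 1 gene was more than 10-fold lower with RA and its neighbour was at a like or higher level. With a pseudocount of 1 FPKM the log2 ratios were -2.54 for Gna15 and -1.57 for Gna14, in place of -3.89 and -3.82.

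The other neighbours among the alpha subunits also differed in level. Gnat2 lies 5847 bases from Gnai3 on the opposite strand, and Gnat1 lies 39106 bases from Gnai2 on the same strand. In both of these pairs the transducin gene had the far lower level. Of the G12 class Gna12 was at 26.3 FPKM with LIF and 28.7 FPKM with RA. Gna13 was at 23.3 and 15.8 FPKM, 1.47-fold lower.

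The most abundant beta and gamma subunit genes were the same in both conditions, and the genes past 2-fold had lower levels than these. Gng10, which was past 2-fold, held 10.5% of the summed gamma FPKM with RA. Gnb1 was at 173 FPKM with LIF and 188 FPKM with RA, and Gnb2 at 112 and 129 FPKM, and together they made up nearly all of the beta subunit FPKM in both conditions. Gnb4 was 2.39-fold higher, at 7.63 FPKM with LIF and 18.3 FPKM with RA. Gnb5, the divergent beta subunit that pairs with RGS proteins in neurons, was 2.71-fold higher, at 3.40 and 9.22 FPKM. Gnb3 was under 0.1 FPKM in both conditions.

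Gng5 was the dominant gamma subunit, at 261 FPKM with LIF and 330.3 FPKM with RA, which is 79.2% and 79.0% of the summed gamma FPKM. Gng10 was 3.84-fold higher, at 11.5 FPKM with LIF and 44.1 FPKM with RA. Of its transcript 78.9% of the 50-base words also occur in the overlapping gene Gm20503, so their reads cannot be told apart. Gng11 was 2.45-fold higher, at 1.37 FPKM with LIF and 3.37 FPKM with RA. Gng12 was at 6.23 and 11.5 FPKM, 1.84-fold higher.

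The neuronal gamma subunit gene Gng3 was 2.28-fold lower, at 19.0 FPKM with LIF and 8.34 FPKM with RA, within the limit after rescaling. It shares 21.9% of its 50-base words with Bscl2 on the opposite strand, which was at 13.6 and 11.3 FPKM. Gng8 was 3.35-fold lower, at 2.07 FPKM with LIF and 0.617 FPKM with RA. Gng2 was 1.70-fold lower, at 24.4 and 14.4 FPKM, and 22.7% of its words are shared with Gm48283 and Gng2-ps1. Gng7 was at 1.80 and 2.30 FPKM, and Gng13, of which 46.4% of the words are shared with Chtf18 on the opposite strand, at 2.24 and 3.15 FPKM. Chtf18 was at 24.3 FPKM with LIF and 17.6 FPKM with RA. Gng4 was under 0.1 FPKM in both conditions. Among the gamma genes with these symbols the order by level was Gng5, Gng2, Gng3, Gng10 with LIF and Gng5, Gng10, Gng2, Gng12 with RA.

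**Figure D2:**
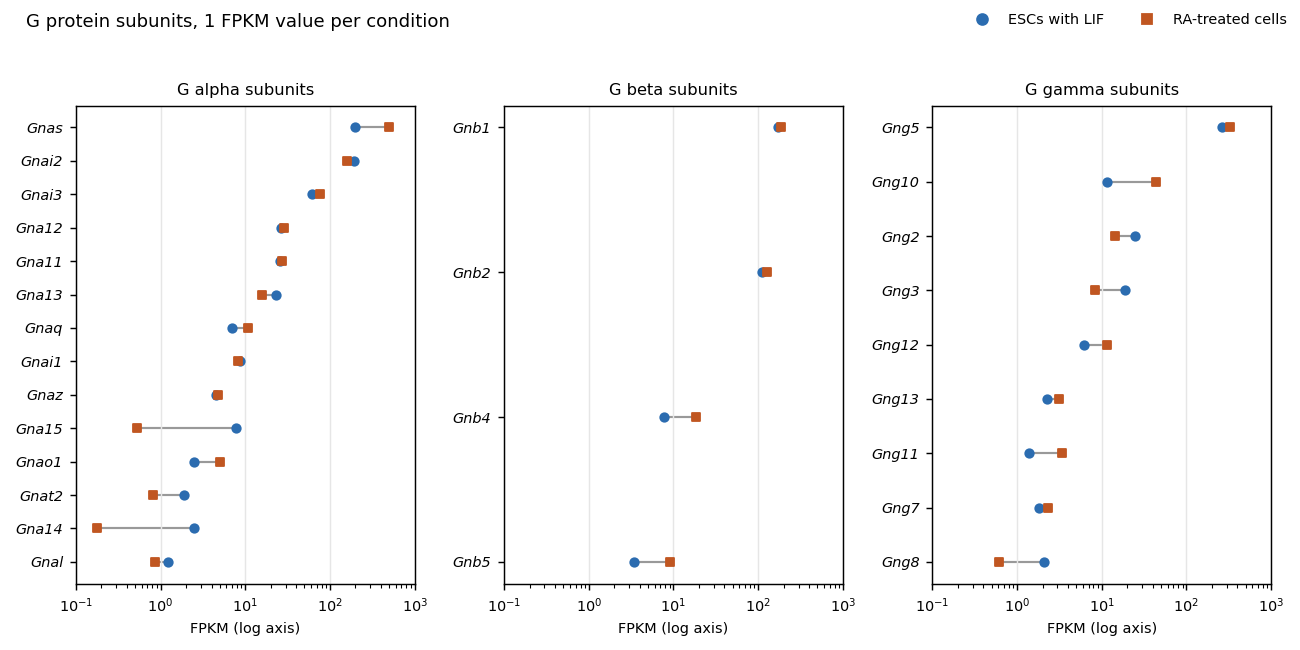
FPKM on a log axis is plotted for each G protein subunit gene with a mean of at least 1 FPKM, as a circle for ESCs with LIF and a square for RA-treated cells, 1 value per condition and no error bar. Gna14 and Gna15 have the longest lines towards lower values, and Gnas lies at 197 FPKM with LIF and 504 FPKM with RA.

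The adenylyl cyclases as a family were higher with RA, with a summed 16.4 FPKM with LIF and 28.4 FPKM with RA (1.73-fold). Adcy6, a calcium-inhibited cyclase, was 2.88-fold higher, at 3.79 FPKM with LIF and 10.9 FPKM with RA. With LIF the most abundant cyclase was Adcy3, which was at 6.12 FPKM with LIF and 5.26 FPKM with RA and was higher with RA after rescaling. Adcy3 shares 24.3% of its words with Cenpo on the opposite strand. Adcy2, a cyclase that beta and gamma subunits can stimulate, was 7.83-fold higher, at 0.468 FPKM with LIF and 3.67 FPKM with RA.

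The calmodulin-stimulated Adcy1 was at 3.14 FPKM with LIF and 3.81 FPKM with RA. Adcy7 was 1.86-fold higher, at 1.12 and 2.08 FPKM, and Adcy9 was at 0.984 and 1.29 FPKM. The other 4 cyclases had a mean under 1 FPKM. Of these Adcy8 was at 0.00493 FPKM with LIF and 0.221 FPKM with RA, and Adcy5 at 0.528 and 0.719 FPKM. The soluble cyclase Adcy10, which bicarbonate activates, was at 0.0145 and 0.0377 FPKM, and Adcy4 at 0.228 and 0.360 FPKM. As deposited, all 10 cyclases but Adcy3 had the higher value in RA-treated cells, and after rescaling Adcy3 did too. Of the 6 cyclases with a mean of at least 1 FPKM, 5 had the higher value with RA as deposited. Of the 12716 genes of the table with a ratio, 6044 did. After rescaling the median log2 ratio over all genes was 0.27, so most genes then had the higher value with RA.

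The phosphodiesterases had members in both directions. Of the 22 genes 12 had a mean of at least 1 FPKM, of which 2 were higher, 4 lower and 6 within 2-fold, beside the 10.9% and 9.74% over all genes. Pde1b, a calmodulin-activated enzyme for both cyclic nucleotides (chromosome 15, 103503034 to 103530052), was 5.50-fold lower, at 14.0 FPKM with LIF and 2.55 FPKM with RA. Pde8a, a high-affinity cAMP enzyme, was 4.75-fold lower, at 2.99 FPKM with LIF and 0.629 FPKM with RA. Pde9a, a cGMP-specific enzyme, was 3.46-fold lower, at 5.09 and 1.47 FPKM. Pde2a, which cGMP stimulates, was 2.34-fold lower, at 3.20 and 1.37 FPKM, and within the limit after rescaling, and 90.0% of its words also occur in the overlapping gene Gm45837.

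In the other direction, Pde10a, an enzyme abundant in striatal neurons (chromosome 17, 8525372 to 8986648), was at 0.132 FPKM with LIF and 2.30 FPKM with RA, 17.5-fold higher. This was the largest ratio among the 70 members without a pseudocount. With a pseudocount of 1 FPKM the log2 ratio of Pde10a was 1.55 in place of 4.13, below the 1.85 of Gng10. Pde3b, which cGMP inhibits, was 2.47-fold higher, at 3.84 FPKM with LIF and 9.48 FPKM with RA. Of the cGMP-specific enzymes Pde5a had the higher value with RA, at 2.07 FPKM with LIF and 3.99 FPKM with RA, where Pde9a had the lower one.

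The cAMP-specific enzymes of the Pde4 family, common feedback regulators of cAMP, were within 2-fold where their mean reached 1 FPKM. Pde4a was at 4.59 FPKM with LIF and 3.36 FPKM with RA, Pde4c at 2.80 and 3.19 FPKM, and Pde4d at 2.01 and 1.24 FPKM. Pde4b was at 0.366 and 0.453 FPKM. The most abundant cAMP-specific enzyme in both conditions was Pde7a, at 17.8 FPKM with LIF and 27.5 FPKM with RA (1.55-fold). Pde6d had the highest level of all entries with a phosphodiesterase symbol, at 28.8 and 52.4 FPKM, and its product carries prenylated proteins rather than degrading cyclic nucleotides. The catalytic subunits of photoreceptors, Pde6a, Pde6b and Pde6c, had at most 0.0540 FPKM. Without Pde6d the phosphodiesterases summed to 59.8 FPKM with LIF and 59.6 FPKM with RA. The dual-specificity enzymes summed to 21.8 and 16.8 FPKM and the cAMP-specific ones to 30.8 and 37.3 FPKM.

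The PKA subunits had 1 of 6 genes past the limit as deposited, against 20.6% of all genes with a ratio. The main catalytic subunit gene Prkaca was at 45.4 FPKM with LIF and 58.3 FPKM with RA, and Prkacb at 18.2 and 23.1 FPKM. The regulatory subunit gene Prkar1a (chromosome 11, 109649405 to 109669656) was the most abundant, at 61.0 and 75.9 FPKM, which is 40.8% and 40.5% of the summed PKA FPKM. Prkar2a was at 17.3 and 16.1 FPKM and was higher with RA after rescaling. The regulatory subunits of neural tissue had the larger ratios. Prkar1b was 2.13-fold higher, at 2.43 FPKM with LIF and 5.16 FPKM with RA. Prkar2b was 1.70-fold higher, at 5.17 and 8.77 FPKM, and past the limit after rescaling. The catalytic subunits summed to 63.6 FPKM with LIF and 81.4 FPKM with RA, and the regulatory subunits to 85.9 and 106 FPKM, ratios of 1.28 and 1.23.

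**Figure D3:**
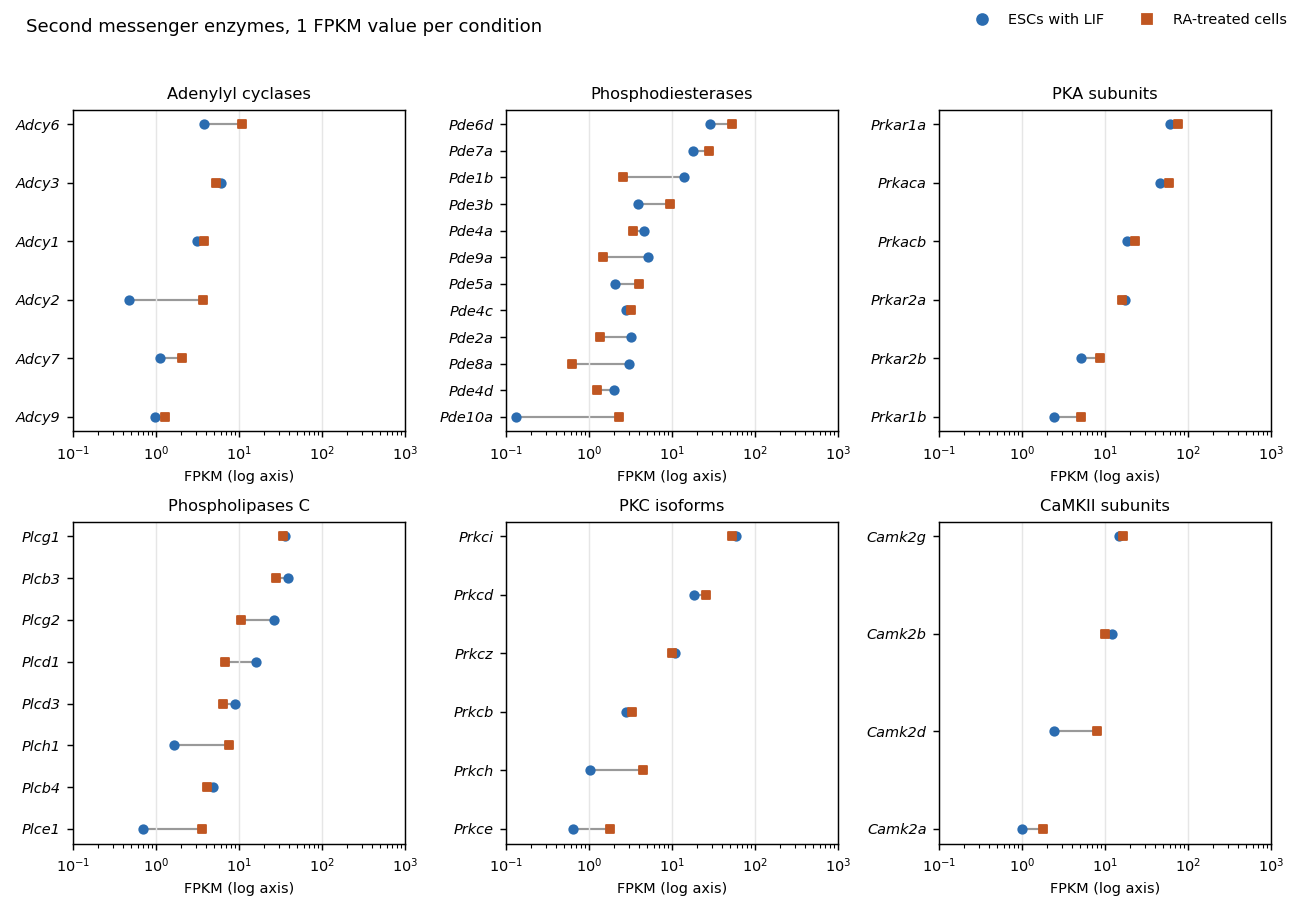
FPKM on a log axis is plotted for the second messenger enzyme genes described here with a mean of at least 1 FPKM, in panels by family, as a circle for ESCs with LIF and a square for RA-treated cells, 1 value per condition and no error bar. Pde10a, Adcy2, Plce1 and Plch1 have long lines towards higher values and Pde1b and Pde8a towards lower values, while the PKA genes lie close together.

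The phospholipases C were the one family with a lower sum in RA-treated cells, 135 FPKM with LIF and 102 FPKM with RA (1.32-fold lower), and the sum stayed lower after rescaling. As deposited, the 6 isoforms with the highest levels in ESCs had lower values with RA. Plcb3, a target of Gq, was at 38.7 FPKM with LIF and 28.0 FPKM with RA, and Plcb4 was at 4.82 and 4.14 FPKM. Plcg1, which receptor tyrosine kinases activate, was at 35.7 and 33.5 FPKM, and like Plcb4 was higher with RA after rescaling. Plcg2 was 2.49-fold lower, at 26.4 FPKM with LIF and 10.6 FPKM with RA. Plcd1 was 2.37-fold lower, at 15.9 and 6.68 FPKM, and within the limit after rescaling, and Plcd3 was at 8.84 and 6.44 FPKM.

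Both genes past the limit upwards had low levels in ESCs. Plch1, of the eta type found in neurons (chromosome 3, 63696234 to 63899472), was 4.60-fold higher, at 1.63 FPKM with LIF and 7.48 FPKM with RA. Plce1, which the small GTPase Ras activates (chromosome 19, 38481109 to 38785030), was 5.16-fold higher, at 0.690 and 3.56 FPKM. The other eta gene, Plch2, was at 1.05 FPKM with LIF and 0.202 FPKM with RA. Plcb1, a Gq target of the forebrain, was at 0.191 and 0.992 FPKM, Plcb2 at 0.0473 and 0.113 FPKM, and Plcd4 at 1.00 and 0.558 FPKM, all with a mean under 1 FPKM. Plcd4 shares 35.4% of its words with other genes, most with Zfp142, which was at 4.26 FPKM with LIF and 5.21 FPKM with RA. The epsilon and eta enzymes together summed to 3.37 FPKM with LIF and 11.2 FPKM with RA.

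The PKC isoforms that need diacylglycerol but no calcium had higher values in RA-treated cells. Prkch was 4.31-fold higher, at 1.03 FPKM with LIF and 4.43 FPKM with RA. Prkce was 2.73-fold higher, at 0.646 and 1.77 FPKM, and Prkcd was 1.38-fold higher, at 18.4 and 25.3 FPKM. Prkcq was at 0.0563 and 0.368 FPKM. These 4 isoforms summed to 20.1 FPKM with LIF and 31.9 FPKM with RA.

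The atypical isoforms, which act in cell polarity, held most of the PKC transcript in both conditions. Prkci was at 59.4 FPKM with LIF and 52.3 FPKM with RA, 61.2% and 52.0% of the family. Prkcz was at 10.8 and 9.90 FPKM, and both were higher with RA after rescaling. The conventional isoforms, which calcium activates, were low. Prkcb was at 2.75 and 3.30 FPKM. Prkca was at 0.279 FPKM with LIF and 0.790 FPKM with RA.

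CaMKII, a calcium-dependent kinase, is built of 4 kinds of subunit. Camk2d was the one past the limit as deposited, at 2.42 FPKM with LIF and 8.01 FPKM with RA, 3.32-fold higher. Its part of the summed CaMKII FPKM was 7.93% with LIF and 22.2% with RA. Camk2g held the largest part in both conditions, at 14.8 and 16.3 FPKM. Camk2b was at 12.2 FPKM with LIF and 9.95 FPKM with RA. Camk2a, the main subunit of forebrain neurons, was at 0.995 and 1.81 FPKM, 1.82-fold higher, and past the limit after rescaling. Its chief partner in mature synapses, Camk2b, thus had the higher level of the 2 in both conditions.

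The members with a mean of at least 100 FPKM were Gnai2, Gnas, Gnb1, Gnb2 and Gng5, which held 54.9% of the summed member FPKM with LIF and 60.3% with RA. At the other end, 24 members had a mean under 1 FPKM. None of them exceeded 1.05 FPKM in ESCs or 0.992 FPKM in RA-treated cells, and 9 were under 0.1 FPKM in both. Of the 22 with a value above 0 in both conditions the RA value was above the LIF value for 17, as it was for 53.8% of the 5475 such genes of the table.

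**Figure D4:**
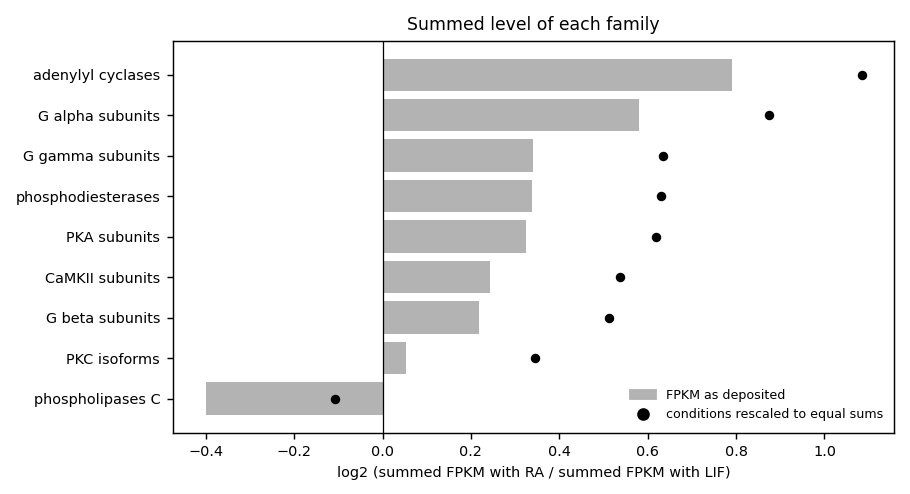
Bars give the log2 ratio of the summed FPKM of each family with RA to that with LIF, as deposited, and dots give the same after both conditions were rescaled to equal sums. The bars run from -0.40 for phospholipases C to 0.79 for adenylyl cyclases, and every dot lies 0.29 to the right of its bar end.

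CREB binds the palindrome TGACGTCA, the cAMP response element (CRE), and promoters of these genes were searched for it because several members act in the cAMP route. RefSeq promoters (GRCm38, 250 bases before to 50 bases after a start) were matched for 74 of the 94 members. The CRE, searched on both strands, occurred in 3 of 126 promoters of members (2.38%) and in 1.79% of all 32851 promoters. It lay in Prkar1a and Prkcz, both within 2-fold, and the Prkar1a site counts for 2 promoters that overlap. The windows are shown with the motif in capitals.
Prkar1a: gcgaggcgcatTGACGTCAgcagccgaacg
Prkcz: ttgtttccgtgTGACGTCAgctcctccgta
The Prkar1a window is chr11:109650889-109650918 on the plus strand, with the motif beginning 49 bases before 1 start and 38 bases after another. The Prkcz window is chr4:155345778-155345807 on the minus strand, with the motif beginning 7 bases before the start. The half-site TGACG, which the palindrome contains, was found in 20.6% of promoters of members and 20.8% of all promoters. AGGTCA, the half-site of retinoic acid receptors, was found in 8.73% and 16.3%. The DR5 element, a direct repeat of this half-site with 5 bases between the copies, was found in 0 promoters of members and in 3 of all promoters. None of the 10 higher or 10 lower members with a promoter in the table held the full CRE. A match is a run of letters and was not tested as a site.

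Other genes of these routes were taken from lists of known regulators. Their counts as deposited stand beside the 10.9% higher and 9.74% lower over all genes. Counts after rescaling stand beside 17.3% higher and 6.80% lower over all genes. Of 12 PKA inhibitor and anchoring genes with a mean of at least 1 FPKM, 1 was higher and 0 lower. This was Pkia, which encodes a PKA inhibitor peptide, at 1.28 FPKM with LIF and 3.36 FPKM with RA (2.61-fold). The most abundant anchor, Akap12, was at 112 and 109 FPKM. Of 11 genes for CREB factors, their coactivators and the Sik kinases that act on the coactivators, 1 was higher and 0 lower as deposited, and 2 were higher after rescaling. The one past the limit as deposited was the coactivator Crtc3, at 1.04 and 3.37 FPKM (3.25-fold). Atf1, the most abundant of them, was at 47.2 FPKM with LIF and 31.6 FPKM with RA. Of 4 Rap exchange factors 2 had a mean of at least 1 FPKM and 0 passed the limit, with Rapgef6 the highest at 7.10 and 6.81 FPKM. The cAMP-activated (Epac) factors among them, Rapgef3 and Rapgef4, which were named after their values were seen, had a mean under 1 FPKM, at 0.823 and 0.531 FPKM with LIF and 0.400 and 0.358 FPKM with RA.

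RGS proteins speed the return of alpha subunits to the GDP state. Of 20 genes 9 had a mean of at least 1 FPKM, with 2 higher and 2 lower as deposited and 3 higher and 1 lower of 10 after rescaling. Rgs10 was 2.96-fold higher, at 5.91 FPKM with LIF and 17.5 FPKM with RA. Rgs2, which acts on Gq, was 3.36-fold higher, at 0.509 and 1.71 FPKM. With LIF Rgs2 was under 0.667 FPKM, so it could reach the mean of 1 FPKM only by a change of at least 2-fold. Rgs11, which pairs with the Gnb5 product, was 3.59-fold lower, at 3.68 and 1.03 FPKM, and Rgs16 was 2.44-fold lower, at 4.84 and 1.98 FPKM, and within the limit after rescaling. Rgs19 was the most abundant, at 20.2 FPKM with LIF and 32.2 FPKM with RA. Among receptor kinases and arrestins, which switch receptors off, 0 of 7 passed the limit as deposited and 2 were higher after rescaling, and Grk6 was the highest, at 42.8 and 38.4 FPKM.

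On the calcium side, of 11 genes for calmodulin, IP3 receptors and regulators of CaM kinases 1 was higher and 3 lower as deposited, and 2 higher and 1 lower after rescaling. The IP3 receptors, which release calcium from the endoplasmic reticulum after PLC acts, were lower for Itpr1, at 13.7 FPKM with LIF and 5.79 FPKM with RA (2.36-fold), and for Itpr3, at 12.2 and 5.10 FPKM (2.39-fold), both within the limit after rescaling. Camk1d was 4.55-fold lower, at 4.40 and 0.967 FPKM, and Camk1 was 2.74-fold higher, at 5.17 and 14.2 FPKM. Calm2, the highest of the calmodulin genes, was at 388 FPKM with LIF and 412 FPKM with RA.

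Diacylglycerol kinases remove the lipid that activates PKC, and MARCKS proteins are PKC substrates. Of 9 such genes with a mean of at least 1 FPKM, 2 were higher and 1 lower as deposited, and 4 higher and 1 lower after rescaling. Dgkk was 6.30-fold higher, at 0.389 FPKM with LIF and 2.45 FPKM with RA, and Dgkz was 2.69-fold higher, at 23.5 and 63.2 FPKM. Like Rgs2, Dgkk was under 0.667 FPKM with LIF and could reach the mean of 1 FPKM only by such a change. Dgka was 3.39-fold lower, at 15.7 FPKM with LIF and 4.62 FPKM with RA. Marcksl1 was the highest of the list, at 201 and 386 FPKM.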

How the data were processed

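RNA from 3 LIF and 3 RA samples was sequenced after TruSeq preparation. Per the methods, mm10 served as the genome, TopHat2 (2.0.8) with Bowtie2 (2.1.0) as the aligner and Cufflinks (2.0.2) with Cuffdiff for quantification, and the annotation release is not given in the sources used here. The deposited table holds the authors' FPKM, 1 value per gene and condition, with 0 columns of single samples. The heading of the RA column reads FPK and was taken as FPKM. The depth per sample is unknown. The table's fold changes, test statistics, p-values and q-values are the authors' own comparison and were not used.

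Ratios of the deposited FPKM were formed without a pseudocount for genes with a mean of at least 1 FPKM and counted at 2-fold. All members were eligible to be named, and in the regulator lists the genes past the limit and the gene with the highest mean. The members and lists were chosen with earlier results of these data known. Positions, overlaps, coding ends and 50-base words shared with other genes on either strand came from GENCODE M21 on GRCm38, the assembly that mm10 denotes, and promoters from RefSeq. A comparison of protein sequences was not made, and 1 member, counted in all totals, is not reported by itself here. The marker lists covered pluripotency, RA response, neural progenitors, neurons, endoderm and mesoderm. Counting was tested on simulated data. Python 3.11.15, numpy 2.4.6, pandas 2.3.3 and matplotlib 3.10.9 were used. The alternatives were other pseudocounts, filters, fold limits and scalings, and summing of rows of the same name.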

Additional observations from a re-analysis of the deposited data

How the results depend on the processing

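No paired analysis was possible because the table carries no values of single samples, and for the same reason no sample could be left out in turn. Against 16 higher and 11 lower members, there were 26 higher and 14 lower of 92 without a filter (all genes, 16.2% and 13.2%), 7 higher and 4 lower with a mean of at least 5 FPKM, and 5 higher and 4 lower at a limit of 4-fold. Rescaling both conditions to the same sum gave 7 lower members (all genes, 6.80%). The median log2 ratio was then 0.50 over the members and 0.27 over all genes. The summed log2 ratios were 0.54 for CaMKII subunits, 0.87 for G alpha, 0.51 for G beta and 0.64 for G gamma subunits. They were 0.62 for PKA subunits, 0.35 for PKC isoforms, 1.08 for adenylyl cyclases, 0.63 for phosphodiesterases and -0.11 for phospholipases C. A pseudocount of 1 FPKM added to each gene gave 0.54 for adenylyl cyclases and left 7 members within 2-fold, namely Gnao1, Gnat2, Gng8, Gng11, Pde2a, Prkar1b and Prkce. Centring and summing rows of the same name changed no member's side of the limit. With 1 value per condition, the spread between samples limits every comparison here and is unknown.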

Other observations

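Most genes of the cGMP branch had low levels. Of 13 genes for guanylyl cyclases and cGMP-dependent kinases 11 had a mean under 1 FPKM, against 10451 of the 23235 entries of the table. The other 2 were the natriuretic peptide receptors, which are themselves guanylyl cyclases, and both were higher with RA. Among all genes with a ratio 10.9% were higher. After rescaling 2 of 3 genes of this list with a mean of at least 1 were higher, against 17.3% of all genes. Npr1 was at 4.84 FPKM with LIF and 17.2 FPKM with RA (3.55-fold), and Npr2 at 1.08 and 3.53 FPKM (3.28-fold).

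Of 12 genes whose products help G proteins fold, receive lipids or cycle, 1 was higher and 0 lower. Over all genes 10.9% were higher and 9.74% lower. Gpsm1, which binds Gi class alpha subunits and acts in spindle orientation, was 2.79-fold higher, at 5.44 FPKM with LIF and 15.1 FPKM with RA. Fnta, a subunit of the prenyltransferases that modify gamma subunits, was the highest of the list, at 69.9 and 56.5 FPKM.

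A gamma subunit gene outside the symbols used here, Gngt2, was chosen after its values were seen. It was 6.16-fold lower in RA-treated cells, at 14.5 FPKM with LIF and 2.36 FPKM with RA. It is known from cone photoreceptors, as is Gnat2, and the gene Abi3 overlaps it on the opposite strand. The mesoderm markers T, Mesp1, Tbx6 and Mixl1 all had a mean under 1 FPKM.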
